A study of Mus musculus with 32 samples.

Results

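The comparison described here is the last daily step of a time course in bone marrow-derived macrophages from which the exonuclease Trex1 had been deleted. It sets 2 libraries of Trex1 FL/FL cells collected on day 4 after 4-hydroxytamoxifen (4-OHT) treatment against 2 libraries of the same genotype and treatment collected at day 3, out of 32 libraries in all. The libraries were assigned by the genotype, treatment and day in their labels. Bone marrow from Trex1 FL/FL or Trex1 WT/FL mice was differentiated with medium conditioned by L929 fibroblasts, which supplies the growth factor CSF1. All of these mice carry R26 CreERT2, a ubiquitously expressed Cre recombinase that 4-OHT activates, so that treated Trex1 FL/FL cells lose both copies of the gene and treated Trex1 WT/FL cells lose their single floxed copy. Each genotype was also kept untreated, and every arm was collected on days 1, 2, 3 and 4 as 2 libraries per day. The day 3 and day 4 libraries of the other 3 arms (4 libraries each) show what the same step looked like without complete deletion. The labels do not name an animal or a culture for any library, so each p-value below measures only the spread between these libraries.

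TREX1 degrades DNA in the cytosol. When it is missing, self DNA can reach the sensor cGAS, which makes the second messenger that activates STING, and STING signalling leads to type I interferon and then to the expression of interferon-stimulated genes (ISGs) through the transcription factor complex ISGF3. Macrophages in CSF1-containing medium proliferate, and a wave of transcription late in the cycle supplies the proteins of G2 phase and mitosis, many of them through promoters with a cell cycle homology region bound by the DREAM and MMB complexes. Sterol and fatty acid synthesis genes are controlled by the SREBP factors, and immediate early genes such as Fos and Egr1 respond within minutes to growth factors and other stimuli.

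Trex1 itself (chr9:108887001-108888802, minus strand, GRCm39) had 0 counts in all 4 Trex1-deleted libraries. Its level was 68.9 and 79.4 CPM on day 3 and 47.8 and 49 CPM on day 4 in 4-OHT-treated Trex1 WT/FL cells and 144 and 137 CPM on day 3 and 101 and 90.3 CPM on day 4 in untreated Trex1 FL/FL cells. All 31-base words of Trex1 (100%) also occur in transcripts of other genes, so its counts, the 0 counts of the deleted libraries included, depend on how Salmon shared out these reads. The macrophage markers Adgre1 (the F4/80 antigen) and Csf1r (the CSF1 receptor) stood at 4787 and 4607 and at 4460.0 and 4457 CPM on day 3 and at 4862 and 4583 and 4196 and 4304 CPM on day 4, and neither passed the test. CPM is the count scaled to a common library size after TMM scaling. The 4 libraries held 36698887 to 63760884 counts, within the 35120505 to 63760884 of the whole series, and mitochondrially encoded genes took 1.36 to 1.98% of them.

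Of 15257 genes tested, 27 were higher on day 4 (0.177%) and 88 were lower (0.577%) when an adjusted p below 0.01 and a log2 fold change beyond 1.5 in either direction were required. At an adjusted p below 0.05 with no minimum fold change, the counts were 1027 higher (6.73%) and 1375 lower (9.01%), and the latter rule is used for the members of gene lists below. These shares of all genes are the background for each count of list members. For the differences of the step from a control arm, described below, the shares were 3.21% higher and 3.87% lower against 4-OHT-treated Trex1 WT/FL. Against untreated Trex1 FL/FL cells they were 3.21% and 3.64%. The libraries of the 2 days did not overlap in CPM for 26.7% of genes in the higher and 28.6% in the lower direction. An exact permutation test of 2 against 2 libraries cannot go below p = 0.333, and all tests therefore rest on the edgeR quasi-likelihood fit, in which the 16 groups of the series share one estimate of the spread. The genes that rose mostly shared their sign with the other arms. All 27 had a positive log2 fold change in 4-OHT-treated Trex1 WT/FL and in untreated Trex1 FL/FL cells, where 20 and 22 of them passed an adjusted p of 0.05. In untreated Trex1 WT/FL cells 26 were positive and 22 passed. Among the 27, 8 named genes stayed below a mean of 5 CPM in the higher group, and another 8 were unnamed gene models. The 88 genes that fell were of several kinds: 24 also fell in 4-OHT-treated Trex1 WT/FL cells, 36 rose there, and in untreated Trex1 FL/FL cells 20 fell and 38 rose. Of these 88 genes 58 named genes and all 8 unnamed gene models stayed below a mean of 5 CPM in the higher group. Of the same 88, 16 belong to the list of G2 and M phase genes and 7 to the list of cholesterol and fatty acid synthesis genes.

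**Figure D1:**
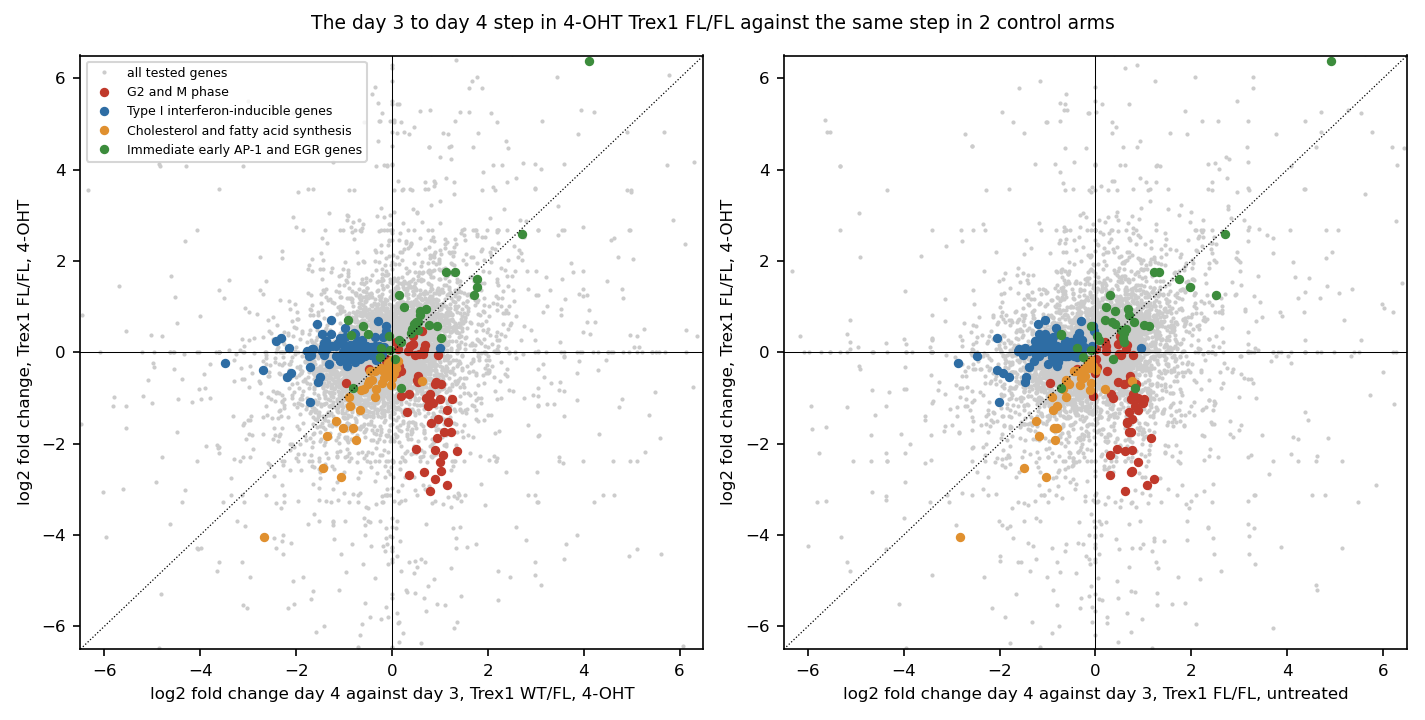
Each point is a gene: the vertical axis gives its log2 fold change from day 3 to day 4 in Trex1-deleted cells, the horizontal axis the same in 4-OHT-treated Trex1 WT/FL cells (left) or untreated Trex1 FL/FL cells (right), with 4 gene lists in colour, a dotted line of equality and 90 genes beyond the axes not drawn. G2 and M phase genes lie mostly at the lower right, interferon-inducible genes on the horizontal zero line to the left, and sterol and immediate early genes on either end of the line of equality.

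Of the gene groups whose step differed from the control arms, 2 are described first. One is the late cell cycle group, whose promoters are shown here because a single short element recurs in them. The letters TTTGAA (the cell cycle homology region, CHR), searched on both strands of the RefSeq promoter windows (GRCm38.p6, 250 bases before to 50 after a gene start), were present in 35 of 54 windows of G2 and M phase genes (64.8%) and in 17.9% of all 32851 windows. Of the 56 list members 49 matched the RefSeq table by symbol. Capitals mark each match in the windows of 3 genes that fell, the mitotic cyclin Ccnb2, the mitotic kinase Plk1 and the ubiquitin-conjugating enzyme Ube2c.
Ccnb2, chr9:70421505-70421804, minus strand: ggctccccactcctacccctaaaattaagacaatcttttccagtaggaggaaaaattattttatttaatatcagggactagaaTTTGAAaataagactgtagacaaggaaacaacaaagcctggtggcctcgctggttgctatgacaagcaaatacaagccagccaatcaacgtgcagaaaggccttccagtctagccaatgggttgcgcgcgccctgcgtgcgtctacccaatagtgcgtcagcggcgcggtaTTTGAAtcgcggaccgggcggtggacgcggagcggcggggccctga
Plk1, chr7:122159185-122159484, plus strand: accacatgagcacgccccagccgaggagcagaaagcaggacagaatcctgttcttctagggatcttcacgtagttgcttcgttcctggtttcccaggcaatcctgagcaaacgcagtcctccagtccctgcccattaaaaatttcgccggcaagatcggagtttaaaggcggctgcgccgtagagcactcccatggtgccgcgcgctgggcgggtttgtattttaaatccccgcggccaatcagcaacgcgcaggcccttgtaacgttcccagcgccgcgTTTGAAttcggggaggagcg
Ube2c, chr2:164769679-164769978, plus strand: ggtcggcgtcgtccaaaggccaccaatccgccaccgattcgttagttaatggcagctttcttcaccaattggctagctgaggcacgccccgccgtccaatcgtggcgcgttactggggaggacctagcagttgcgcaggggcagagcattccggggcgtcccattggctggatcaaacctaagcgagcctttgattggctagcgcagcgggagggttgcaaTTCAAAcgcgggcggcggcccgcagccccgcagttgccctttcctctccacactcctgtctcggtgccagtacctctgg
The other is the interferon-inducible genes, which stayed level in the deleted cells while they fell elsewhere. The letters TTTCNNTTTC, a core of the interferon-stimulated response element (ISRE), were in 48 of 109 windows of that list (44%; 87 of 112 tested members matched) and in 3.44% of all windows. The windows of the chemokine Cxcl10 and the ubiquitin-like Isg15 are shown, with the match on the strand opposite to the gene and overlapping matches merged in Isg15.
Cxcl10, chr5:92348840-92349139, minus strand: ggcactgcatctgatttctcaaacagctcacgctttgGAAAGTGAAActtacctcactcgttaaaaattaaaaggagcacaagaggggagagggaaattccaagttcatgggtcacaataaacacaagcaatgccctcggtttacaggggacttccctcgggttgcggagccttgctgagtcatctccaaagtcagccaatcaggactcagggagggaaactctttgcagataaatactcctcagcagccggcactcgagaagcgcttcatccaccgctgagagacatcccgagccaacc
Isg15, chr4:156200769-156201068, minus strand: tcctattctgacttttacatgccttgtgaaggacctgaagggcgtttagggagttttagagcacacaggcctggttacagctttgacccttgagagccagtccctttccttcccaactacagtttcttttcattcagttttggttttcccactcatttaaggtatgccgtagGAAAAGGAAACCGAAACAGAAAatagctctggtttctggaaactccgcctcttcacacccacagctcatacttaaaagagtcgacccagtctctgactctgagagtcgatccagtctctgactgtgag
For sterol genes the letters TCACNCCAC (a sterol regulatory element, SRE) were in 1 of 33 windows (3.03%) against 1.24% of all windows, and that window is of Hmgcs1, which makes the HMG-CoA that HMG-CoA reductase uses.
Hmgcs1, chr13:119690101-119690400, plus strand: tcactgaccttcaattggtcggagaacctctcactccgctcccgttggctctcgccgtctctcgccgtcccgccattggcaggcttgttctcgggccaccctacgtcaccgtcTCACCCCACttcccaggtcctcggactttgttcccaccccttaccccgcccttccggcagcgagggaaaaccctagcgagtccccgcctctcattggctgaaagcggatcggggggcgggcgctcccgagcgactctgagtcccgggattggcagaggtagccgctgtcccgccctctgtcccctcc
The palindrome TGACGTCA (a cyclic AMP response element, CRE) was in 3 of 33 windows of immediate early genes (9.09%) and in 1.79% of all windows. A match describes the letters in these windows and not a bound site, and matches of different motifs overlap in 19 of all windows.

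Genes of G2 phase and mitosis fell. Of 56 listed genes, all tested, 37 were lower and 3 higher on day 4 (1 without day 3 replicate 2), with a median log2 fold change of -0.81 over the list, against 9.01% and 6.73% of all genes and a median of -0.003. Ccnb2 (chr9:70314966-70328874, minus strand), the cyclin partner of CDK1 at entry into mitosis, measured 5.61 and 4.98 CPM on day 3 and 0.775 and 0.484 CPM on day 4 (log2 fold change -3.04 ± 0.20 (SE), adjusted p = 9.8e-11). Both day 4 libraries were far below both day 3 libraries. Fewer dividing cells and less of these transcripts per cell cannot be told apart in bulk libraries. Ube2c, which serves the anaphase-promoting complex, went from 6.7 and 5.44 to 0.914 and 0.938 CPM (log2 fold change -2.69). Plk1, the kinase that drives centrosome maturation and spindle assembly, went from 4.62 and 3.68 to 0.858 and 0.303 CPM (-2.78), and the spindle-associated Nusap1 from 3.95 and 3.49 to 0.664 and 0.303 CPM (-2.90). These genes were already at a few CPM on day 3, so their day 4 values rest on few reads: the 4 libraries of Ccnb2 held 192, 291, 28 and 16 counts.

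The proliferation marker Mki67 (chr7:135291513-135318299, minus strand) was better covered. It stood at 29.6 and 28.5 CPM on day 3 and 5.76 and 7.66 CPM on day 4, a log2 fold change of -2.12 ± 0.11 (SE), adjusted p = 3.7e-12. Ccna2, the cyclin of S and G2 phase, fell from 6.61 and 5.44 to 1.3 and 1.21 CPM (log2 fold change -2.24). Kif20a and Prc1, which are not in the list, and Anln, which is, act in the central spindle and in cytokinesis and fell by 1.88, 1.70 and 1.74 on the log2 scale. Foxm1, a transcription factor of late cell cycle genes, was at 4.15 and 4.24 CPM on day 3 and 1.38 and 2.54 CPM on day 4 (log2 fold change -1.11 ± 0.22 (SE), adjusted p = 0.0012). Ndrg4, which is not a listed cell cycle gene, was among the 15 largest decreases that met the 5 CPM minimum (5.61 and 4.89 to 1.72 and 1.45 CPM). The members of the p53 target list with the largest decreases were Ckap2 (log2 fold change -1.52) and Gtse1 (-0.96), which act in mitosis and in G2 and are also in the G2 and M phase list, whereas Trp53inp1 fell by 0.74 and Plk2 rose by 0.87. Of 39 tested p53 targets 2 rose and 12 fell (median log2 fold change -0.17). In the other 3 arms 12, 13 and 16 fell and 4, 5 and 6 rose. Against 4-OHT-treated Trex1 WT/FL the step was lower in deleted cells for 2 and higher for 2. Against untreated Trex1 FL/FL it was lower for 4 and higher for 3. The CDK inhibitor Cdkn1a read 523 and 503 CPM on day 3 and 489 and 468 CPM on day 4. This change did not pass the test (adjusted p = 0.26). Cdkn1a fell in these 2 control arms (log2 fold change -0.57 and -0.50). By edgeR quasi-likelihood its step in deleted cells was higher by 0.47 and 0.40 (adjusted p = 0.00028 and 0.0016).

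In the other arms the same list rose. In 4-OHT-treated Trex1 WT/FL cells 43 of 56 G2 and M phase genes were higher on day 4 and 2 lower (median log2 fold change 0.66), in untreated Trex1 FL/FL cells 42 and 2 (0.62), and in untreated Trex1 WT/FL cells 46 and 2 (0.90). Of all genes, 10.3%, 10.4% and 9.73% were higher in these arms. Ccnb2 there went from 5.67 and 4.22 to 7.98 and 9.4 CPM in 4-OHT-treated Trex1 WT/FL and from 7.88 and 7.41 to 11 and 12.7 CPM in untreated Trex1 FL/FL cells. The difference of the 2 steps, tested in the same fit, was log2 fold change -3.84 ± 0.24 (SE), adjusted p = 2.1e-11 against 4-OHT-treated Trex1 WT/FL, and it was -3.66 against untreated Trex1 FL/FL. All 41 G2 and M phase genes that passed the test of the difference had a lower step in deleted cells, and this held against either control arm (41 in each; all genes, 3.87% and 3.64% lower). These 2 differences share the libraries of the deleted cells. On day 3 the listed genes averaged a log2 CPM of 3.32 and 3.16 in deleted cells, next to 3.21 and 3.03 in 4-OHT-treated Trex1 WT/FL, so that the libraries separated on day 4, at 2.31 and 2.19 against 3.73 and 3.71.

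Among genes with at least 5 CPM in a group, the largest differences of the step in the lower direction were in genes of the late cell cycle, some of them outside the list. They were Aspm, Nusap1, Ccnb2, Plk1, Hmmr, Ccna2, Cenpf and Spag5 against 4-OHT-treated Trex1 WT/FL cells, from -4.38 for Aspm, which organises spindle poles, to -3.12 for Spag5, a spindle and kinetochore protein. Against untreated Trex1 FL/FL cells Ckap2l took the place of Spag5 (-3.28). Aspm read 5.44 and 4 CPM on day 3 and 0.471 and 0.454 CPM on day 4 in deleted cells and 3.96 and 3.04 CPM on day 3 and 7.9 and 6.83 CPM on day 4 in 4-OHT-treated Trex1 WT/FL cells. Cenpf, a kinetochore protein, read 5 and 3.78 CPM on day 3 and 0.637 and 0.757 CPM on day 4 in deleted cells, next to 6.53 and 4.87 CPM on day 3 and 8.59 and 9.62 CPM on day 4 in the treated controls. Both control libraries of day 4 were thus above, and both deleted libraries far below, their day 3 values. For Hmmr, a spindle protein, the deleted cells gave 5 and 3.83 CPM on day 3 and 0.803 and 0.605 CPM on day 4 and the treated controls 4.64 and 2.77 CPM on day 3 and 7.87 and 7.31 CPM on day 4. At the strict thresholds 32 genes had a higher (0.21%) and 107 a lower step (0.701%) than in 4-OHT-treated Trex1 WT/FL cells, and 20 (0.131%) and 103 (0.675%) than in untreated Trex1 FL/FL cells. The higher counts depend on single libraries: 32 became 19 without day 3 replicate 2 and 18 without day 4 replicate 1 of 4-OHT-treated Trex1 WT/FL, and 20 became 12 without day 3 replicate 1 of untreated Trex1 FL/FL and 12 without day 3 replicate 2 of the deleted cells.

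Genes of DNA replication moved less than those of mitosis. Of 71 S phase and replication genes 14 rose and 4 fell (median log2 fold change 0.09), while 50 rose in 4-OHT-treated Trex1 WT/FL cells and 47 in untreated Trex1 FL/FL cells (medians 0.57 and 0.58). The step was lower in deleted cells for 24 and 20 of the 71 genes and higher for 0 in either test. Rrm2, the small subunit of ribonucleotide reductase, was the member that fell furthest, from 3.6 and 3.92 to 1.91 and 1.57 CPM (log2 fold change -1.11), against a rise from 3.69 and 4.74 to 11.5 and 10.8 CPM in 4-OHT-treated Trex1 WT/FL cells. Mcm5, a subunit of the replicative helicase, rose in deleted cells from 11.8 and 10.6 to 19.3 and 20.7 CPM (0.84). The exonuclease gene Exo1 read 1.14 and 0.633 CPM on day 3 and 1.69 and 1.54 CPM on day 4 and rose (log2 fold change 0.94 ± 0.31 (SE), adjusted p = 0.042), and Dna2, a nuclease and helicase of end resection, fell by 0.80. Of 48 replication-dependent histones tested, 5 rose and 0 fell, at adjusted p below 0.05 by edgeR quasi-likelihood, H1f2 with the most reads (45.1 and 41.1 CPM on day 3 and 93.4 and 92.3 CPM on day 4), and 6 and 5 rose in untreated Trex1 FL/FL and 4-OHT-treated Trex1 WT/FL cells. Ezh2, the methyltransferase of PRC2, fell from 13 and 12.9 to 9.08 and 8.99 CPM, a step lower than in either control arm (log2 fold change -0.75 ± 0.11 (SE), adjusted p = 3.2e-05 against 4-OHT-treated Trex1 WT/FL).

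**Figure D2:**
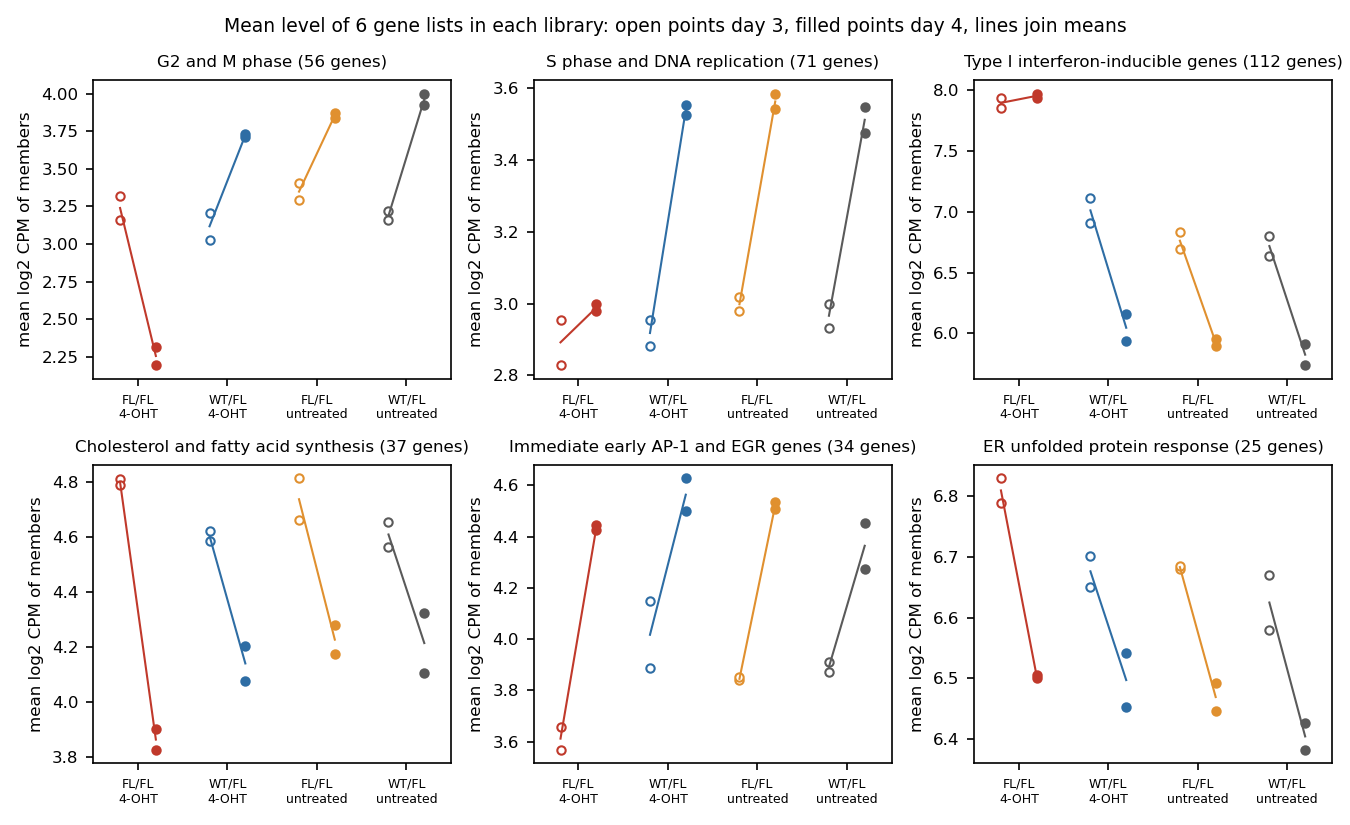
Each panel gives the mean log2 CPM over the members of a list in each library, with day 3 as open and day 4 as filled points for the 4 arms and lines between the means of the 2 libraries. G2 and M phase genes fall in Trex1-deleted cells and rise in the other 3 arms, and interferon-inducible genes stay between 7.86 and 7.97 in deleted cells while they fall elsewhere.

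Cyclin D1 went the other way. Ccnd1 (chr7:144483668-144493662, minus strand), the G1 cyclin that growth factors induce, measured 70.5 and 64.4 CPM on day 3 and 236 and 244 CPM on day 4 in deleted cells (log2 fold change 1.83 ± 0.08, adjusted p = 7.7e-14). It rose in the other arms too, to 127 and 127 CPM in 4-OHT-treated Trex1 WT/FL and 112 and 123 CPM in untreated Trex1 FL/FL cells, and the step was larger in deleted cells by 0.77 ± 0.12 and 0.89 ± 0.12. Myc, a growth-promoting transcription factor, rose by 1.60, as it did in the other arms (1.78 and 1.74), though from 2.22 and 2.14 CPM on day 3, below the 5.37 and 3.98 CPM of 4-OHT-treated Trex1 WT/FL cells. Among 35 tested E2F, RB and cyclin-CDK regulators 5 rose and 8 fell (median 0.01).

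Interferon-inducible genes changed little within deleted cells, with more small rises than falls: 75 of 112 tested genes had a positive log2 fold change. In 49 genes both day 4 libraries lay above both day 3 libraries, and in 22 they lay below (26.7% and 28.6% of all genes). Of 114 listed genes 112 were tested, of which 8 rose and 4 fell, with a median log2 fold change of 0.06, against 6.73% and 9.01% of all genes. These counts depend on the fit: 3 rose without day 3 replicate 2 or without day 4 replicate 1, 2 fell when any 1 of the 4 libraries was left out, and 26 rose and 10 fell when only the 4 libraries were fitted. The same genes fell in the other 3 arms, with 104 in the treated Trex1 WT/FL controls (median -0.80), 102 in untreated Trex1 FL/FL (-0.78) and 104 in untreated Trex1 WT/FL cells (-0.76), where 9.31%, 11.5% and 10.3% of all genes fell. The test of the difference of the steps found a higher step in deleted cells for 99 of 112 genes and a lower one for 1 against 4-OHT-treated Trex1 WT/FL, and for 89 and 1 against untreated Trex1 FL/FL cells, where 3.21% of all genes were higher in each test. Averaged over the list, log2 CPM was 7.93 and 7.86 on day 3 and 7.97 and 7.94 on day 4 in deleted cells, against 6.91 and 7.12 and then 5.94 and 6.16 in 4-OHT-treated Trex1 WT/FL cells.

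The panel of 8 interferon-stimulated genes that the study followed by qPCR showed the same pattern. Isg15 (chr4:156283883-156285303, minus strand) read 382 and 317 CPM on day 3 and 389 and 364 CPM on day 4 in deleted cells, where the ranges of the 2 days overlapped, and 122 and 152 CPM on day 3 and 47.2 and 53.4 CPM on day 4 in 4-OHT-treated Trex1 WT/FL cells. Its step differed by 1.55 ± 0.27 (SE), adjusted p = 0.0014. Usp18, a protease that removes ISG15 and restrains interferon receptor signalling, read 215 and 191 CPM on day 3 and 230.2 and 214 CPM on day 4 in deleted cells and 67 and 84.2 CPM on day 3 and 31 and 36.8 CPM on day 4 in 4-OHT-treated Trex1 WT/FL cells (difference of steps 1.29). Irf7, the transcription factor that amplifies type I interferon production, read 2519 and 2260.0 CPM on day 3 and 2669 and 2434 CPM on day 4. Cxcl10 was the panel member with the largest difference. It read 269 and 225 CPM on day 3 and 200.0 and 179 CPM on day 4 in deleted cells and 84.1 and 111 CPM on day 3 and 13.5 and 16.8 CPM on day 4 in 4-OHT-treated Trex1 WT/FL cells, a difference of steps of 2.31 ± 0.36 (adjusted p = 0.00054). Oasl1, Oas1a, Ifit3 and Ifi44 had log2 fold changes of 0.25, 0.06, 0.40 and -0.07 in deleted cells, and none of the 8 panel genes passed an adjusted p of 0.05 there. Against untreated Trex1 FL/FL cells 7 of the 8 differences passed that threshold, and Irf7 did not (adjusted p = 0.066).

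Members that did change within the deleted cells were few. Mx1, a dynamin-like antiviral GTPase, read 322 and 275 CPM on day 3 and 492 and 479.9 CPM on day 4 (log2 fold change 0.70 ± 0.19 (SE), adjusted p = 0.017). Ifi27l2a rose by 0.68 and the restriction factor Ifitm2 by 0.58, and the guanylate-binding protein Gbp7 fell by 0.65, with 203 and 199 CPM on day 3 and 129 and 128 CPM on day 4. Among genes with at least 5 CPM in a group, the largest differences of the step in the higher direction were led by Ifit1bl1 and Ms4a4c. Ifit1bl1, of the Ifit family, read 327 and 263 CPM on day 3 and 289 and 216 CPM on day 4 in deleted cells and 42.6 and 52.4 CPM on day 3 and 3.6 and 5.01 CPM on day 4 in 4-OHT-treated Trex1 WT/FL cells (difference 3.25). Ms4a4c, a membrane protein of the MS4A family, read 711 and 657 CPM on day 3 and 918 and 778 CPM on day 4 and 151 and 177 CPM on day 3 and 28.6 and 37.3 CPM on day 4 (difference 2.63). Apol9a, Tnfsf8, Ifi205, Gbp4 and Tcstv4 completed the set against 4-OHT-treated Trex1 WT/FL, and Tnfsf10 (the death ligand TRAIL), Treml2 and Kdr joined against untreated Trex1 FL/FL. Tnfsf8, the ligand of CD30, itself fell in deleted cells (18 and 17.1 to 9.99 and 10.6 CPM) but fell further in 4-OHT-treated Trex1 WT/FL cells (4.76 and 6.19 to 0.743 and 0.627 CPM). Several of these genes have close relatives: 39.4% of the 31-base words of Ifit3, 22.6% of Ifi205 and 20.2% of Apol9a also occur in transcripts of other genes, so their values carry the uncertainty of how reads were shared out.

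The machinery upstream of these genes was measured as well. Of 35 tested genes among the interferons, their receptors and JAK-STAT signalling, 4 rose and 4 fell, beside 6.73% of all genes higher and 9.01% lower. Stat2, a subunit of ISGF3, fell from 898 and 835 to 611 and 584 CPM, a smaller fall than in 4-OHT-treated Trex1 WT/FL cells (384 and 468 to 138 and 162 CPM, difference of steps 0.97, adjusted p = 0.00069). Irf5 rose from 221 and 208 to 320.0 and 304 CPM, and Cish, a feedback inhibitor of cytokine receptors, fell by 1.10. The interferon genes themselves were nearly silent: Ifnb1 stood at 0.332 to 0.439 CPM in the 4 libraries, and the 8 listed Ifna and Ifnab genes that were not tested had 0 counts in all of them. Chosen after its values were seen, the sensor gene Cgas rose (17.8 and 16.6 CPM on day 3 and 24.6 and 21.9 CPM on day 4, log2 fold change 0.44) and Sting1 fell (62.5 and 67.4 CPM on day 3 and 45.2 and 48 CPM on day 4, -0.48), and Sting1 fell in 4-OHT-treated Trex1 WT/FL cells too (-0.86). Of 31 tested genes of cGAS-STING and nucleic acid metabolism 5 rose and 3 fell, beside the same shares of all genes.

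MHC class I genes also fell in the control arms. Of 23 MHC class I pathway genes 2 rose and 3 fell in deleted cells, while 14 fell in 4-OHT-treated Trex1 WT/FL cells, and the step was higher in deleted cells for 11 of 23. Of all genes, 6.73% rose and 9.01% fell in deleted cells, 9.31% fell in these controls and 3.21% had a higher step. The nonclassical class I genes H2-Q7 and H2-Q6 rose (1.03 and 0.87), from 252 and 249 and 137 and 144 CPM, although 38.2% and 48% of their 31-base words occur in other genes. Tapbp (tapasin) fell by 0.28 and Pdia3 by 0.24. Of 17 MHC class II pathway genes 0 rose and 2 fell by edgeR quasi-likelihood at adjusted p below 0.05, namely Ciita, the class II transactivator, from 5.2 and 4.21 to 2.1 and 2.42 CPM, and the costimulatory ligand Cd80, which fell by 0.41.

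**Figure D3:**
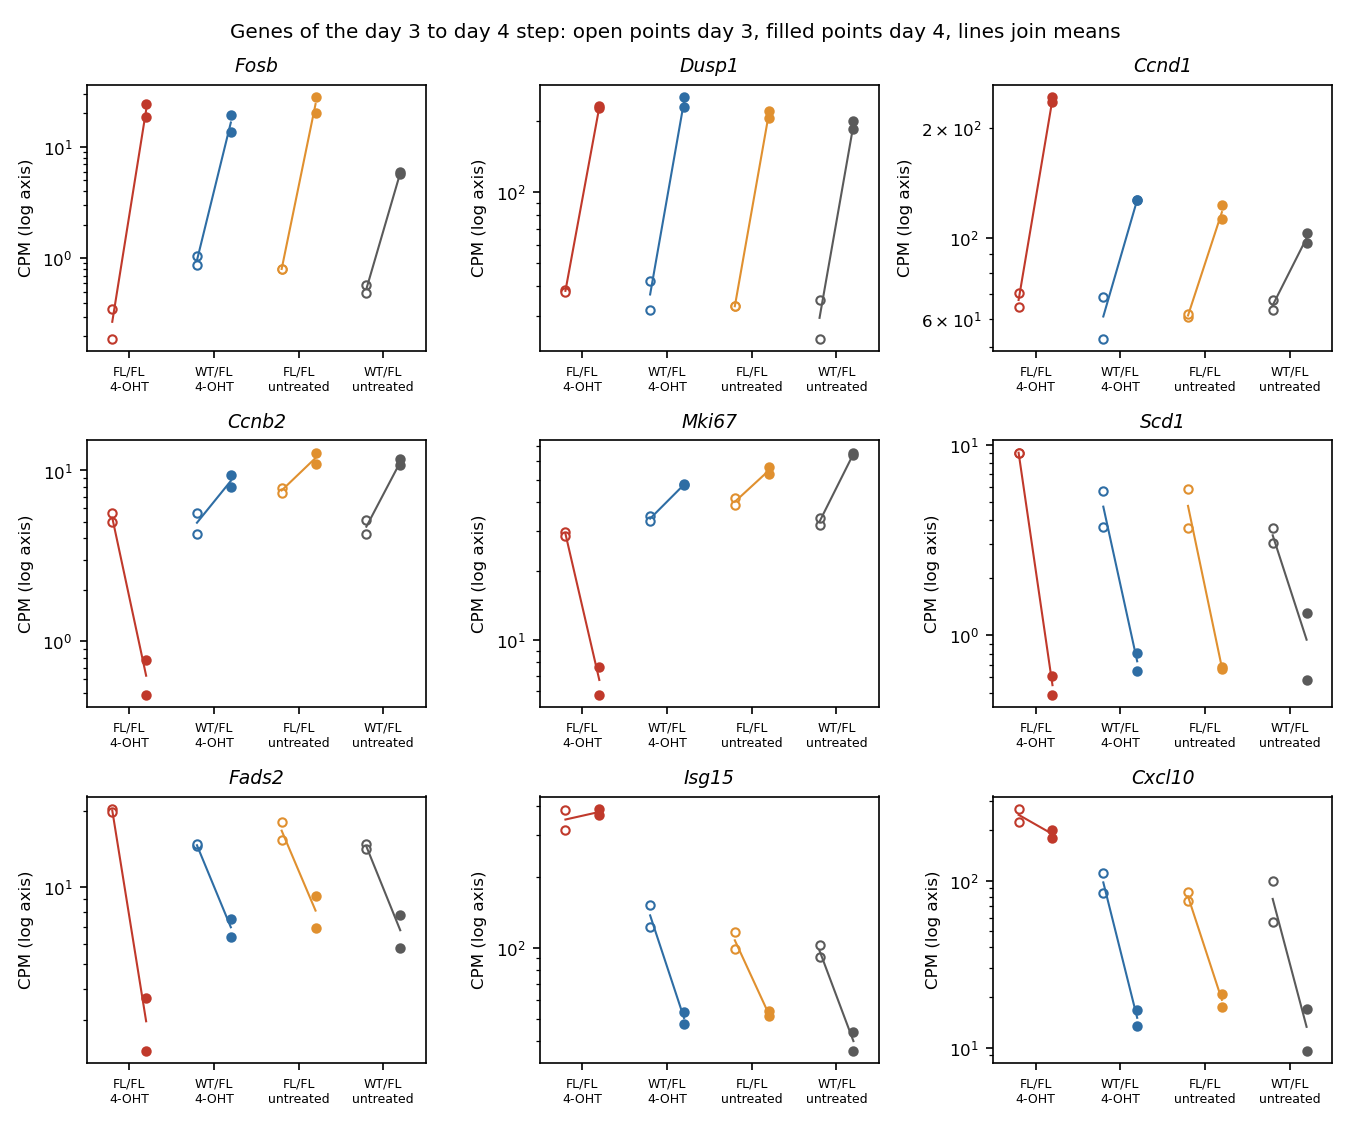
CPM of 9 genes on logarithmic axes in each library of days 3 and 4 in 4 arms, with lines joining the means of the 2 libraries. Fosb, Dusp1 and Ccnd1 rise in every arm, Scd1 and Fads2 fall in every arm, Ccnb2 and Mki67 fall only in Trex1-deleted cells among the 4 arms drawn, and Isg15 and Cxcl10 fall in the 3 other arms.

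Cholesterol and fatty acid synthesis genes fell. Of 37 tested members 31 were lower on day 4 and 0 higher (edgeR quasi-likelihood, adjusted p below 0.05), all 37 had a negative log2 fold change, and 36 had libraries that did not overlap between days (28.6% of all genes). Scd1 (chr19:44382894-44399154, minus strand), the stearoyl-CoA desaturase, showed the largest change: 9.06 and 9.08 CPM on day 3 and 0.609 and 0.484 CPM on day 4 (log2 fold change -4.04 ± 0.40 (SE), adjusted p = 1.7e-06). The 4 libraries held 310, 531, 22 and 16 counts for it. Its relative Scd2 read 157 and 198 CPM on day 3 and 46.3 and 47.2 CPM on day 4 (-1.92), and the fatty acid desaturase Fads2 20.4 and 19.8 CPM on day 3 and 3.68 and 2.27 CPM on day 4 (-2.74). Hmgcs1, whose promoter window is printed above and which was named for that window, read 45.8 and 49.9 CPM on day 3 and 28.5 and 34 CPM on day 4 (-0.62). The fall was present in the other arms, where 19, 22 and 21 of the 37 were lower and the median was -0.35, -0.38 and -0.34, against -0.64 in deleted cells.

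The difference of the step was lower in deleted cells for 11 sterol and fatty acid genes against 4-OHT-treated Trex1 WT/FL and for 10 against untreated Trex1 FL/FL cells, and higher for 0 in either (edgeR quasi-likelihood; 3.87% and 3.64% of all genes were lower). Fads2 was among them (-1.68 and -1.72), as was Scd2 (-1.18 and -1.07). For Scd1 the test of the difference did not pass (adjusted p = 0.24 against 4-OHT-treated Trex1 WT/FL). On the efflux side, 10 of 24 tested LXR target genes rose and 2 fell. Lpl, lipoprotein lipase, rose from 1842 and 1727 to 3805 and 3469 CPM, a log2 fold change of 1.03 that differed from 4-OHT-treated Trex1 WT/FL cells by 0.02 ± 0.14. Fabp4, a fatty acid carrier, and the apolipoproteins Apoc1 and Apoc2 rose by 1.24, 1.21 and 0.97 from low day 3 levels, and 44.5% of the 31-base words of Apoc2 occur in other genes.

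Immediate early genes rose. Of 34 tested genes 20 were higher and 1 lower on day 4 (median log2 fold change 0.59), and 5 passed the strict thresholds. Fosb (chr7:19036621-19043976, minus strand), an AP-1 subunit, went from 0.351 and 0.188 to 24.2 and 18.6 CPM, on 12, 11, 875 and 613 counts. This was the largest increase (log2 fold change 6.39 ± 0.41 (SE), adjusted p = 2.7e-10) among genes past the strict thresholds that met the 5 CPM minimum. Dusp1, a phosphatase that switches off MAP kinases, read 38.6 and 37.9 CPM on day 3 and 232 and 227 CPM on day 4 (2.59). Fos read 151 and 155 CPM on day 3 and 519 and 514 CPM on day 4 (1.76), and the zinc finger factor Egr1 3.1 and 2.91 CPM on day 3 and 9.33 and 11.1 CPM on day 4 (1.77). These changes were shared: 15 genes of the list rose and 4 fell in 4-OHT-treated Trex1 WT/FL cells, and 17 and 4 in untreated Trex1 FL/FL cells. Of the 34 genes, the step was higher in deleted cells for 3 and 2 and lower for 0 and 2. For Dusp1 the log2 fold change of the treated controls was 2.71, and the difference of the steps was -0.12 ± 0.18. Fosb started lower on day 3 in deleted cells than in the treated controls (1.05 and 0.871 CPM), and its step was larger by 2.29 ± 0.55 (adjusted p = 0.01), whereas the difference from untreated Trex1 FL/FL cells did not pass (adjusted p = 0.14).

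Chemokine and NF-kB target genes were split. Of 25 tested CC and CXC chemokines 8 rose and 1 fell. Cxcl2 (chr5:91051730-91053797, plus strand), a neutrophil attractant, read 10.1 and 10.1 CPM on day 3 and 56.8 and 64 CPM on day 4 (log2 fold change 2.58 ± 0.30 (SE), adjusted p = 1.4e-05), and in 4-OHT-treated Trex1 WT/FL cells it reached 114 and 80.3 CPM. Cxcl1 rose from 0.468 and 0.735 to 4.26 and 1.94 CPM and Ccl3 from 45.3 and 37.3 to 103 and 105 CPM. The member that fell was Cxcl3, from 2.66 and 2.51 to 0.526 and 0.151 CPM, a step lower than in 4-OHT-treated Trex1 WT/FL cells (difference -3.55 ± 0.81, adjusted p = 0.0076). Of 71 NF-kB and TNF-inducible genes 21 rose and 10 fell. Among 10 tested chemokine receptors Ccr3 and Cx3cr1 rose and Cxcr3 fell, and Ccr3 (9.27 and 8.79 CPM on day 3 and 27.3 and 26 CPM on day 4) rose in the other arms as well (1.70 in 4-OHT-treated Trex1 WT/FL). Cx3cr1, the fractalkine receptor, differed from them: it read 12.8 and 12.1 CPM on day 3 and 21.3 and 14.9 CPM on day 4 in deleted cells, while it went from 46.3 and 49.5 to 29.5 and 27.8 CPM in untreated Trex1 FL/FL cells (difference of steps 1.29, adjusted p = 0.0023). The other large increases were Rgs1, a regulator of G protein signalling (2.08), the lipase inhibitor Angptl4 (2.27) and the growth factor Bmp2 (1.80), none with a step that passed the test of a difference from either arm.

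ER stress genes fell in deleted cells and, in smaller numbers, in the other arms. In the unfolded protein response list 20 of 25 genes fell and 1 rose (median log2 fold change -0.29, and 13 fell without day 3 replicate 2), and 8, 13 and 15 fell in the other 3 arms. The step was lower in deleted cells for 2 of 25 genes against 4-OHT-treated Trex1 WT/FL and for 0 against untreated Trex1 FL/FL cells. Herpud1, a component of ER-associated degradation, went from 55.5 and 58.7 to 34.5 and 37.9 CPM, while Ppp1r15a, the phosphatase subunit that reverses eIF2alpha phosphorylation, rose from 29.7 and 28.6 to 47.6 and 52 CPM. Eif2ak3, the ER stress kinase PERK, fell by 0.53, and its step was lower than in 4-OHT-treated Trex1 WT/FL cells (-0.59). Of 36 ATF4 amino acid stress genes 2 rose and 13 fell, and 10 and 15 had a lower step than in the 2 control arms. Slc7a11, the cystine transporter, read 16.2 and 23.7 CPM on day 3 and 5.76 and 5.87 CPM on day 4 (log2 fold change -1.78 ± 0.22 (SE), adjusted p = 7e-06) and rose in untreated Trex1 FL/FL cells from 10.3 and 10.1 to 16.3 and 18.1 CPM. Phgdh, which starts serine synthesis, fell from 26.6 and 22.3 to 12 and 9.08 CPM, levels above the 4.47 and 4.39 CPM of untreated Trex1 FL/FL cells on day 4, and 39.8% of its 31-base words occur in other genes.

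In the NRF2, iron and heme list the arms diverged. Deleted cells had 4 rises and 8 falls among 30 tested genes, 4-OHT-treated Trex1 WT/FL cells 20 rises and 3 falls, and untreated Trex1 FL/FL cells also 20 and 3. The step was lower in deleted cells for 17 and 19 of 30 genes and higher for 2 in each test. Me1, the NADPH-producing malic enzyme, read 15.6 and 14.2 CPM on day 3 and 9.97 and 9.17 CPM on day 4 in deleted cells and 11.7 and 13.6 CPM on day 3 and 20.9 and 18.1 CPM on day 4 in 4-OHT-treated Trex1 WT/FL cells (difference of steps -1.27 ± 0.17). Osgin1 rose in both, by 0.50 and 1.32, and Trf (transferrin) rose by 0.93 in deleted cells, more than the 0.46 of the treated controls. Of 44 glycolysis and hypoxia genes 3 rose and 8 fell in deleted cells, 16 rose in untreated Trex1 FL/FL cells, and 11 and 12 had a lower and 1 in each test a higher step than in the 2 control arms. Aldoc (aldolase C) fell from 37.4 and 35.5 to 12.3 and 12.1 CPM and the glucose transporter Slc2a3 from 6.78 and 6.17 to 3.21 and 3.09 CPM. Vegfa, in the same list, rose from 32.9 and 38.7 to 94.8 and 88.8 CPM and stayed below the 198 and 180.1 CPM of untreated Trex1 FL/FL cells on day 4.

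All 13 mitochondrially encoded respiratory chain genes had a positive log2 fold change (median 0.61) and 7 passed the test, led by mt-Nd3, mt-Nd2, mt-Nd1 and mt-Nd6. For mt-Nd3 99.1% of the 31-base words occur in other genes, and for mt-Nd2, mt-Nd1 and mt-Nd6 13.5, 0 and 7.36%. Their number was 4 and 11 in 4-OHT-treated Trex1 WT/FL and untreated Trex1 FL/FL cells, and 0 genes passed a difference of steps by edgeR quasi-likelihood in either test. Beside this, the share of counts in mitochondrial genes was higher on day 4 (1.98 and 1.69%) than on day 3 (1.43 and 1.36%), and its part in the result was not tested. Of 70 nuclear-encoded respiratory chain genes 3 rose and 1, Sdha of complex II, fell. Of 77 cytosolic ribosomal protein genes 9 rose and 0 fell (edgeR quasi-likelihood, median 0.10), and 27 had a higher step than in 4-OHT-treated Trex1 WT/FL cells but 0 than in untreated Trex1 FL/FL cells.

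Of 24 macrophage differentiation markers 7 rose and 2 fell, beside 6.73% of all genes higher and 9.01% lower: Trem2, a lipid-sensing receptor, read 458 and 430.5 CPM on day 3 and 722 and 678 CPM on day 4 (0.66), and Lyz2 (lysozyme) 26200.0 and 25800.0 CPM on day 3 and 17880.0 and 15960.0 CPM on day 4 (-0.62). In 4-OHT-treated Trex1 WT/FL cells Lyz2 had a log2 fold change of -0.90. Cd14, the LPS co-receptor, rose in deleted cells (573 and 663 CPM on day 3 and 912 and 881 CPM on day 4) and its step was higher than in either control arm (0.51 and 0.49). Cd36, a scavenger receptor, rose less (0.91) than in 4-OHT-treated Trex1 WT/FL cells (1.58; difference -0.67, adjusted p = 0.0014). Slamf9, an immunoglobulin-family receptor, read 66.9 and 63.5 CPM on day 3 and 129 and 100.3 CPM on day 4 in deleted cells and 8.96 and 9.35 CPM on day 3 and 5.63 and 5.95 CPM on day 4 in untreated Trex1 FL/FL cells (difference of steps 1.48). Csf1 itself fell from 36.2 and 37.5 to 14.3 and 13.7 CPM, and its log2 fold change was -1.45 in 4-OHT-treated Trex1 WT/FL cells against -1.40 here. Tmem154, a membrane protein, was among the 15 largest decreases that met the 5 CPM minimum (7.54 and 9.18 to 1.58 and 2.21 CPM).

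Except for the complement genes, the remaining lists had members past the test in both directions, beside 6.73% of all genes higher and 9.01% lower. Of 34 Toll-like and NOD-like receptor genes 6 rose and 6 fell, with Tlr13 up (0.53) and Nod2 down (-0.87), and 9 and 12 had a higher step than in the 2 control arms. By edgeR quasi-likelihood at adjusted p below 0.05, complement genes counted 5 rises and 0 falls of 18 (C5ar1, 0.49, and C1qb, 0.56), Fc and phagocytic receptors 8 and 4 of 31, cathepsins and lysosome 5 and 13 of 51 (Ctsl, 0.70, Ctsk, -0.93), heat shock chaperones 4 and 1 of 21 (Ahsa1, 0.64), and alternative activation genes 4 and 1 of 24 (Pparg, 0.83). Cell death effectors had 3 rises and 5 falls of 35 (Fas, -0.74, Bcl2l1, 0.47), matrix and adhesion genes 3 and 2 of 38 (Adam8, 1.01), T cell ligands 2 and 4 of 28 (Cd40, 0.66), amino acid and eicosanoid enzymes 3 and 9 of 30 (Alox5, -1.10), CSF1 signalling genes 1 and 4 of 17, and chromatin silencing genes 1 and 2 of 22. Among genes with values above, the calls of Mx1, Ifi27l2a, Exo1, Dna2, Fabp4, Apoc1, Apoc2, H2-Q6, Tapbp, Cd80, Cxcl1, Cx3cr1, Osgin1, Sdha, Ctsk, Ctsl, C1qb, Cd40, mt-Nd1, mt-Nd2, mt-Nd3 and mt-Nd6 were lost when some 1 of the 4 libraries was left out, and that of the difference for Apol9a without day 4 replicate 1 of 4-OHT-treated Trex1 WT/FL.

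Markers of other cell types were few among the genes that passed. Of 12 marker lists, monocytes had 0 rises and 1 fall of 8 tested genes (Vcan), dendritic cells 0 and 1 of 11 (Cd24a), B cells 1 and 0 of 4 (Ighm), eosinophils 1 and 1 of 2 (Ccr3 and Siglecf), platelets 0 and 2 of 6 (Vwf and Itgb3), osteoclasts 0 and 2 of 10 (Ctsk and Itgb3), and endothelium 0 and 1 of 5 (Vwf), and the lists of neutrophils, mast cells, T and NK cells, erythroid cells and fibroblasts had 0 members past the test by edgeR quasi-likelihood. The summed CPM of the monocyte list was 858 and 807 on day 3 and 1013 and 867 on day 4, most of it from Ms4a4c. Without that gene the sum was 146.8 and 149.3 on day 3 and 94.35 and 88.35 on day 4, the median log2 fold change of the 8 genes was -0.86, and 5 of them had day 4 libraries that lay below both day 3 libraries (28.6% of all genes). The summed CPM of the fibroblast list was 1.6 to 3.4 in the 4 libraries. The markers Cd3e, Epx, Hbb-bs, Fcer1a and Pdgfra, chosen after their values were seen, had 0 counts in all 4 libraries. Other members of their lists had reads. The summed CPM was 29.3 to 36.9 for the T and NK list, 2.3 to 3.71 for mast cells and 0.0831 to 0.484 for erythroid cells. For the eosinophil list it was 9.59 and 9.18 on day 3 and 27.3 and 26.1 on day 4. Most of it came from Ccr3 (9.27 and 8.79 CPM on day 3 and 27.3 and 26 CPM on day 4), while Siglecf fell.

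**Figure D4:**
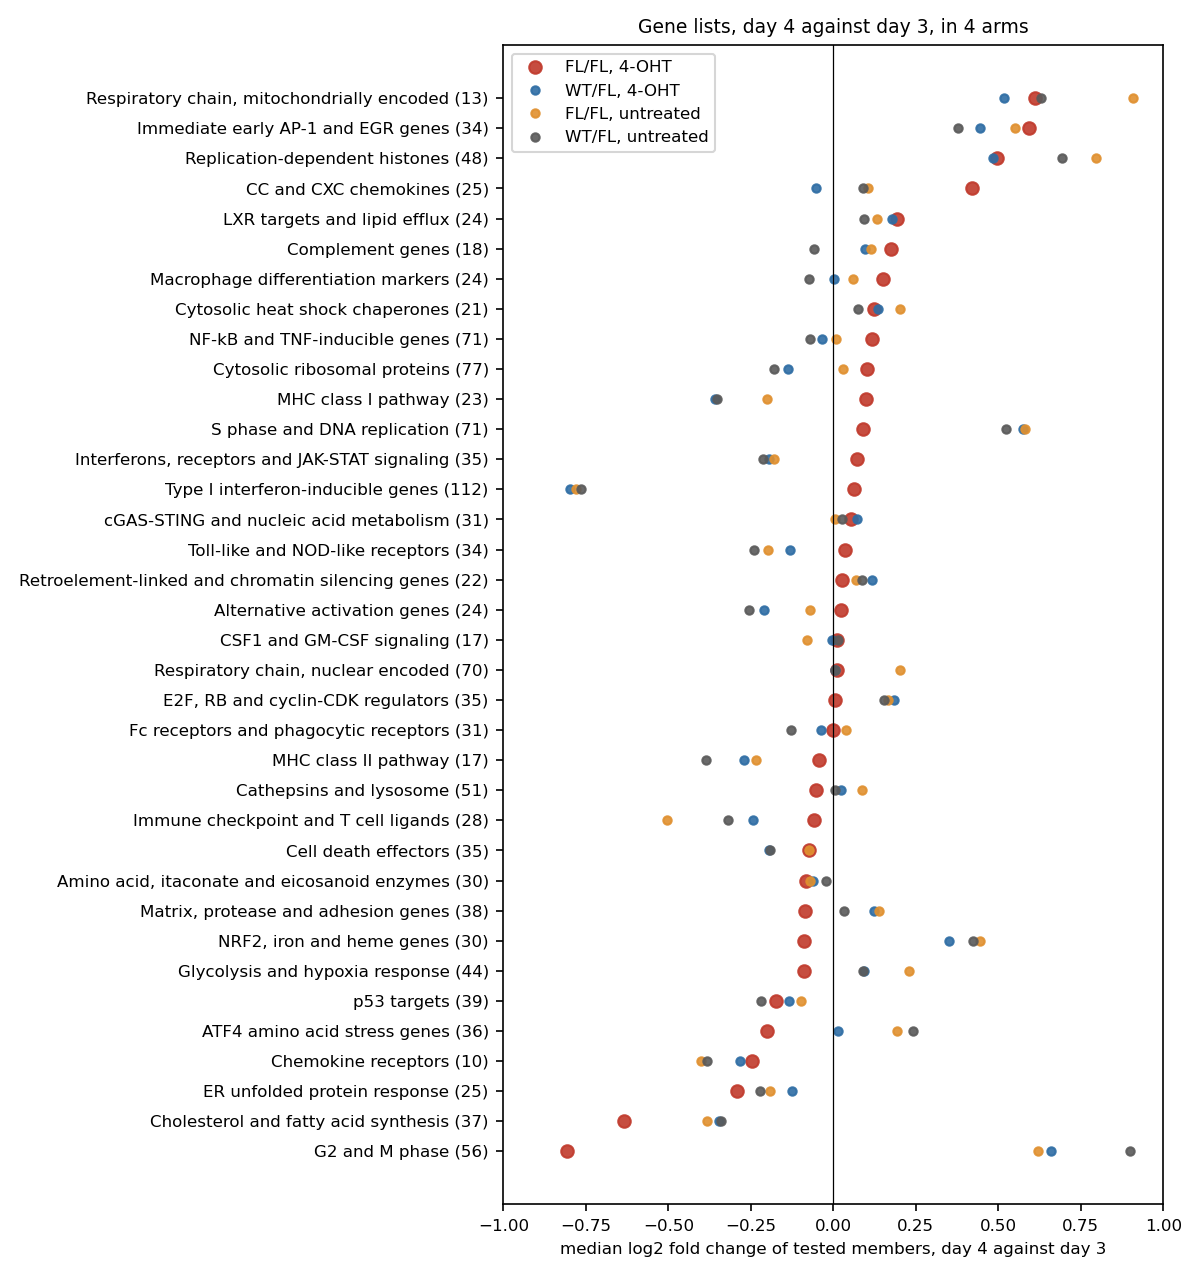
Median log2 fold change from day 3 to day 4 over the tested members of 36 gene lists (number in brackets), with Trex1-deleted cells as large red points and the 3 other arms as small points. Deleted cells stand apart from the other arms at G2 and M phase (-0.81 against 0.62 to 0.90) and at interferon-inducible genes (0.06 against -0.80 to -0.76), and lie with them at immediate early genes.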

How the data were processed

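Gene expression was measured by RNA-seq in 32 libraries of mouse bone marrow-derived macrophages (16 groups of genotype, treatment and day, 2 libraries each). Per the methods and the submitters' processing notes, the authors checked the reads with FastQC 11.9, quantified them with Salmon on GRCm39, imported them with tximport and tested them with DESeq2 1.32; the annotation release was not given in the sources used here. The table they deposited holds Salmon's estimated counts as whole numbers, with a row for each gene and a column for each library, and no value was rounded or changed. Salmon divides reads shared by similar transcripts among genes.

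Of 54281 gene identifiers 51048 matched GENCODE vM39 (GRCm39), which supplied names and coordinates, and the unmatched ones hold 0.32% of the counts. Genes were kept with edgeR 4.0.16 filterByExpr at a minimum count of 10 (15257 genes) and scaled by TMM. A robust quasi-likelihood fit with 1 mean per group and no other term (16 residual degrees of freedom) used all 32 libraries, and 3 contrasts were tested: day 4 against day 3 in Trex1-deleted cells, and the difference of that step from the same step in 4-OHT-treated Trex1 WT/FL and in untreated Trex1 FL/FL cells. The step in each control arm was tested in the same fit, and the difference from untreated Trex1 WT/FL was not tested. P-values were adjusted by Benjamini-Hochberg over all genes tested. SE is the absolute log2 fold change divided by the square root of F. The scripts were tested on simulated data. The gene lists and the members of this comparison were chosen with earlier results of these data known.

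The replicate libraries of days 3 and 4 in Trex1-deleted cells correlated at 0.987 and 0.985 (Pearson, log2 CPM) and differed by more than counting error (chi-square per degree of freedom 7.89 and 8.04), so each was counted as a library of its own. The named genes are Trex1, the 8 genes of the qPCR panel, Mki67 and Cdkn1a; the 15 largest increases and decreases among genes called at adjusted p below 0.01 and absolute log2 fold change above 1.5 whose libraries did not overlap and whose higher group had at least 5 CPM; the 4 largest changes of each list at adjusted p below 0.05; and the 8 largest differences of the step in each direction with at least 5 CPM in a group. Only 12 increases met the rule. Some genes that met the rule are not reported here. Unnamed gene models (Gm and Rik) were counted but not named. Genes outside the rule (Adgre1, Csf1r, Ifnb1, Hmgcs1, Cgas, Sting1 and marker genes at 0) were chosen after their values were seen. Shared sequence is the share of a gene's 31-base words that occur in GENCODE transcripts of another gene. Promoter windows are from RefSeq on GRCm38.p6 and were not converted between builds. Alternatives were RLE and upper-quartile scaling, no filter or a minimum count of 50, DESeq2 1.42.0, fits of fewer libraries, other thresholds, glmTreat, a block for the series of title identifiers, and leaving out each library.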

Additional observations from a re-analysis of the deposited data

Results flagged for a closer look

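The day 3 to day 4 step of Trex1-deleted cells differed from that of a control arm, by the test of the difference itself, for 32 genes in the higher and 107 in the lower direction against 4-OHT-treated Trex1 WT/FL cells, and for 20 and 103 against untreated Trex1 FL/FL cells.

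Among genes with at least 5 CPM in a group, those with the largest higher steps against 4-OHT-treated Trex1 WT/FL cells had differences on the log2 scale of Ifit1bl1 3.25, Apol9a 2.67, Ms4a4c 2.63, Cxcl10 2.31, Tnfsf8 2.21, Ifi205 2.18, Gbp4 2.08 and Tcstv4 2.00. In deleted cells 0.31 was the log2 fold change of Ms4a4c within the arm, and -2.32 that of the treated controls. Against untreated Trex1 FL/FL cells the differences were Ifit1bl1 2.65, Ms4a4c 2.38, Tcstv4 1.98, Tnfsf8 1.92, Treml2 1.85, Kdr 1.85, Tnfsf10 1.77 and Mx1 1.76.

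At the same minimum of 5 CPM, the genes with the largest lower steps against 4-OHT-treated Trex1 WT/FL cells had differences of Aspm -4.38, Nusap1 -4.06, Ccnb2 -3.84, Plk1 -3.69, Hmmr -3.62, Ccna2 -3.35, Cenpf -3.29 and Spag5 -3.12. Against untreated Trex1 FL/FL cells they were Plk1 -4.00, Nusap1 -3.98, Ccnb2 -3.66, Aspm -3.52, Hmmr -3.37, Cenpf -3.37, Ckap2l -3.28 and Ccna2 -3.18. Genes below that minimum, such as Cxcl3 (-3.55 and -4.71), had lower steps of similar or larger size. The 2 tests share the libraries of the deleted cells, so a gene flagged in both is not flagged by independent data. Groups of 2 libraries do not allow a test for outlying samples.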

How the results depend on the processing

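With 2 libraries per group, the counts of genes depend on the rule used more than on the scaling. Under glmTreat (log2 fold change of 1, adjusted p below 0.05) 17 genes were higher and 39 lower on day 4. By the same rule 8 had a higher and 76 a lower step than in 4-OHT-treated Trex1 WT/FL cells. Against untreated Trex1 FL/FL cells 4 had a higher and 68 a lower step. With adjusted p below 0.05 as the sole criterion the counts were 1027 and 1375 within the arm, 489 and 591 against 4-OHT-treated Trex1 WT/FL, and 490 and 556 against untreated Trex1 FL/FL. Without a filter on low counts 67 genes were higher and 129 lower on day 4. In that fit 67 had a higher and 161 a lower step than in 4-OHT-treated Trex1 WT/FL, and 55 and 153 than in untreated Trex1 FL/FL cells. The cause was not tested. When each library was left out in turn, the 6 counts ran from 20 to 28 higher and 64 to 81 lower, from 18 to 43 and 92 to 113 against 4-OHT-treated Trex1 WT/FL, and from 12 to 20 and 88 to 107 against untreated Trex1 FL/FL cells. DESeq2 called 38 genes higher and 94 lower, 26 and 82 of them shared with edgeR. Among single genes, 54 of 183 results past an adjusted p of 0.05 were lost without some library. Leaving out any of the day 3 or day 4 libraries of the deleted cells lost some of these calls. Gene results near 0 changed sign in 2 cases: Ifi44 (-0.160 to 0.027 when 1 library was left out, positive without day 3 replicate 1) and Isg15 (-0.023 to 0.246, negative without day 3 replicate 2). RLE and upper-quartile scaling moved the median of all genes by less than 0.01 on the log2 scale. The labels give no replicate number, animal or batch, but the identifiers in the sample titles run in 2 consecutive series per genotype. A fit with these series as a replicate block, chosen after seeing the data, called 32 genes higher and 95 lower on day 4 (27 and 86 shared with the fit without it), 39 and 110 against 4-OHT-treated Trex1 WT/FL and 20 and 106 against untreated Trex1 FL/FL, and of 201 gene results 1 call was lost (Mmp12, adjusted p = 0.0534 by edgeR). The differences between the series correlated across genes at -0.008 to 0.144 between groups of Trex1 FL/FL and 0.024 to 0.118 of Trex1 WT/FL cells.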
